A study of Homo sapiens with 23 samples.

Results

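The genes of the chromosome 6 long arm at bands 6q24-q25, from UTRN to WTAP, were followed in EFO-21 ovarian cancer cells with acquired resistance to prexasertib, an inhibitor of the checkpoint kinase CHK1. The 52 listed genes were selected on their log2 expression values, which were mostly lower in resistant than in parental EFO-21 along this stretch, and 49 of them matched a gene of the deposited table, which holds 21658 genes. The other 3, ARMT1, CCDC170 and TAGAP, were not analysed here. In GRCh37 the 49 genes lie between 144.6 Mb (UTRN, chr6:144606471-145174170, plus strand) and 160.2 Mb, where SOD2 ends, with WTAP (chr6:160146617-160177351, plus strand) the last to start. Because the EFO-21 comparison chose the genes, their EFO-21 values are given as a description with no test. Tests are given only for the same genes in the 3 lines that played no part in the choice, and for genes elsewhere in the genome.

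RNA was sequenced from 4 ovarian cancer cell lines, EFO-21, OV-90, Kuramochi and OVSAHO, each as the parental cells and as a prexasertib-resistant derivative. The resistant derivatives were obtained by culture in rising concentrations of the drug over a long period, and whether each one is a clone or a mixed population is not given in the sources used here. The 8 groups hold 3 libraries each, apart from parental OV-90 with 2, and the labels call them biological replicates without saying whether the cultures were separate, so a p-value measures the spread between libraries. A value is the deposited expression of a gene on the log2 scale, where 1 unit is 2-fold, and a change is the mean of the resistant libraries minus the mean of the parental libraries.

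Genes of this stretch have varied functions and encode cytoskeletal linkers and scaffolds, guanine nucleotide exchange factors, vesicle traffic proteins, a kinase of the growth-restraining Hippo pathway, an inhibitor of the anaphase-promoting complex, a chromatin remodelling subunit and several mitochondrial proteins. What they share is their place on the chromosome. Neighbouring genes are usually transcribed from their own promoters, so the level of each one can change without that of the next. In a culture measured in bulk, fewer cells expressing a gene and less RNA per cell cannot be told apart.

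The promoters of 4 listed genes are shown because their values went different ways: AKAP12 and ZDHHC14 had the lowest log2 changes between parental and resistant EFO-21, LRP11 the one nearest to 0, and FNDC1 was higher in the resistant cells. These genes were picked after their values were seen. Each sequence is the RefSeq window of assembly GRCh38.p14 on chromosome 6 from 250 bases before to 50 bases after the first listed start, read 5′ to 3′ on the strand of the gene, which is minus for LRP11 and plus for the others. Capitals mark the letters GGGCGG of a GC box, a site class bound by SP/KLF factors, or their reverse complement CCGCCC.

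AKAP12: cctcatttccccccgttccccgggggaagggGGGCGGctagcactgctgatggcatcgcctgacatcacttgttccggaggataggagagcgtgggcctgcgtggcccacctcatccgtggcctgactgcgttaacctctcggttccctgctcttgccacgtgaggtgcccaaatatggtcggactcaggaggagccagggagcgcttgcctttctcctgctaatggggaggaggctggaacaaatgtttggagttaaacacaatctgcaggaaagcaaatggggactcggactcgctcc
ZDHHC14: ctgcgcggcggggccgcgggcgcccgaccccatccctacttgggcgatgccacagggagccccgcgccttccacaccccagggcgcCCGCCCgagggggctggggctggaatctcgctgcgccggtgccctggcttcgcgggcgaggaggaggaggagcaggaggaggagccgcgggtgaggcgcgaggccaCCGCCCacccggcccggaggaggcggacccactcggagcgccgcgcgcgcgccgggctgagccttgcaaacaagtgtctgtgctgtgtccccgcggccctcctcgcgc
LRP11: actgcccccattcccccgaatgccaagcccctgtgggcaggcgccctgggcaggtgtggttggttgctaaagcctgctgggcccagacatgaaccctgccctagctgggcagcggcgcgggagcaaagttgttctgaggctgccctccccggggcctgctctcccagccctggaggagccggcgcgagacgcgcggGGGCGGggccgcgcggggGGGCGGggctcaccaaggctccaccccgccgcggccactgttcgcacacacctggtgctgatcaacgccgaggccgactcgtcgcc
FNDC1: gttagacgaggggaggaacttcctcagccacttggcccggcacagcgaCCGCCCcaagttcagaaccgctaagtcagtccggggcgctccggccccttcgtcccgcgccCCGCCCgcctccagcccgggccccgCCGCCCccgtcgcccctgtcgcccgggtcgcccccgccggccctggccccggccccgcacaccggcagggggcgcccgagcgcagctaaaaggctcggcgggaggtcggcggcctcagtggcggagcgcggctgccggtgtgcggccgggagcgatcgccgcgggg

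The AKAP12 window holds 1 GC box and 15 CG pairs, and AKAP12 has 3 starts in the table, of which the first is shown. The windows of ZDHHC14, LRP11 and FNDC1 hold 2, 2 and 3 GC boxes and 39, 26 and 43 CG pairs, so neither count separates the genes that were lower from those that were not. Of the 49 genes, 45 had a promoter window, and SAMD5, ZC3H12D, NUP43 and TULP4 had none in the table. A GC box on either strand was present in 34 of the 45 windows (75.6%) and in 44.6% of the windows of 27305 genes, which include many non-coding genes. The median number of CG pairs per 300 bases was 30 in the listed genes, ranging from 2 to 54, and 14 over all windows. The other letters searched on both strands were CCAAT, in 24.4% of the listed windows and 35.7% of all windows, TATAAA in 6.67% and 11.9%, TGACTCA (AP-1) in 8.89% and 4.92%, CCGGAAG (ETS) in 17.8% and 10.7%, and CACGTG (E-box) in 8.89% and 7.43%. The letters TTTGGCG (E2F) were in 0 of the listed windows and in 1.92% of all windows. A match describes the letters of the window and is no evidence of binding.

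Read counts were not used here and the depth of every library is unknown, so precision rests on the spread between libraries. Libraries of a group correlated across genes with Pearson's r between 0.971 and 0.988, except for the 2 parental OV-90 libraries, whose r was 0.952. Of 12 epithelial and ovarian carcinoma markers, 8 in parental and 10 in resistant EFO-21 lay above the median of all gene means (5.81), among them PAX8, EPCAM and SOX17, while WT1 was at the bottom of the range in both and KRT7 was low. Of 8 markers of other cell types, 2 in parental EFO-21 (PECAM1, CD14) and 1 in resistant EFO-21 (PECAM1) were above that median, with PECAM1 means of 8.48 and 8.55, and the fibroblast markers DCN and LUM were at the bottom of the range in both. The part of other cell types in the results was not tested. The 10th percentile of a library, called the bottom here, was 1.70 to 1.87, and a difference that reaches it is not a measured fold change.

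In EFO-21 most of the listed genes, the first and the last among them, were lower in the resistant cells. The median change was -1.32, about 2.5-fold, with the middle of the genes between -1.83 and -0.99, while the median over all 21658 genes was 0.01. Of the 49 genes, 47 had a change below 0, 35 were at least 2-fold lower and 2 at least 2-fold higher. These counts follow from the choice of the genes and nothing is read from them. Every resistant library lay below every parental library for 44 of 49 genes (89.8%), against 29.3% of all genes, a count that follows from the choice too. The 5 exceptions were UST, LRP11, SYNE1, IPCEF1 and FNDC1.

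The 3 resistant EFO-21 libraries agreed closely. Their medians over the listed genes, each measured from the parental mean, were -1.37, -1.30 and -1.30, and those of the 3 parental libraries were between -0.04 and 0.03. The median over all genes stayed between 0.00 and 0.01 in all 6 libraries. The 25 listed genes with an EFO-21 mean above 5.81 had changes between -2.32 (SOD2) and -0.03 (LRP11), with a median of -1.19 and an SD over genes of 0.45. The other 24 listed genes spread more widely, between -4.83 and 1.91, with a median of -1.69 and an SD of 1.47.

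**Figure D1:**
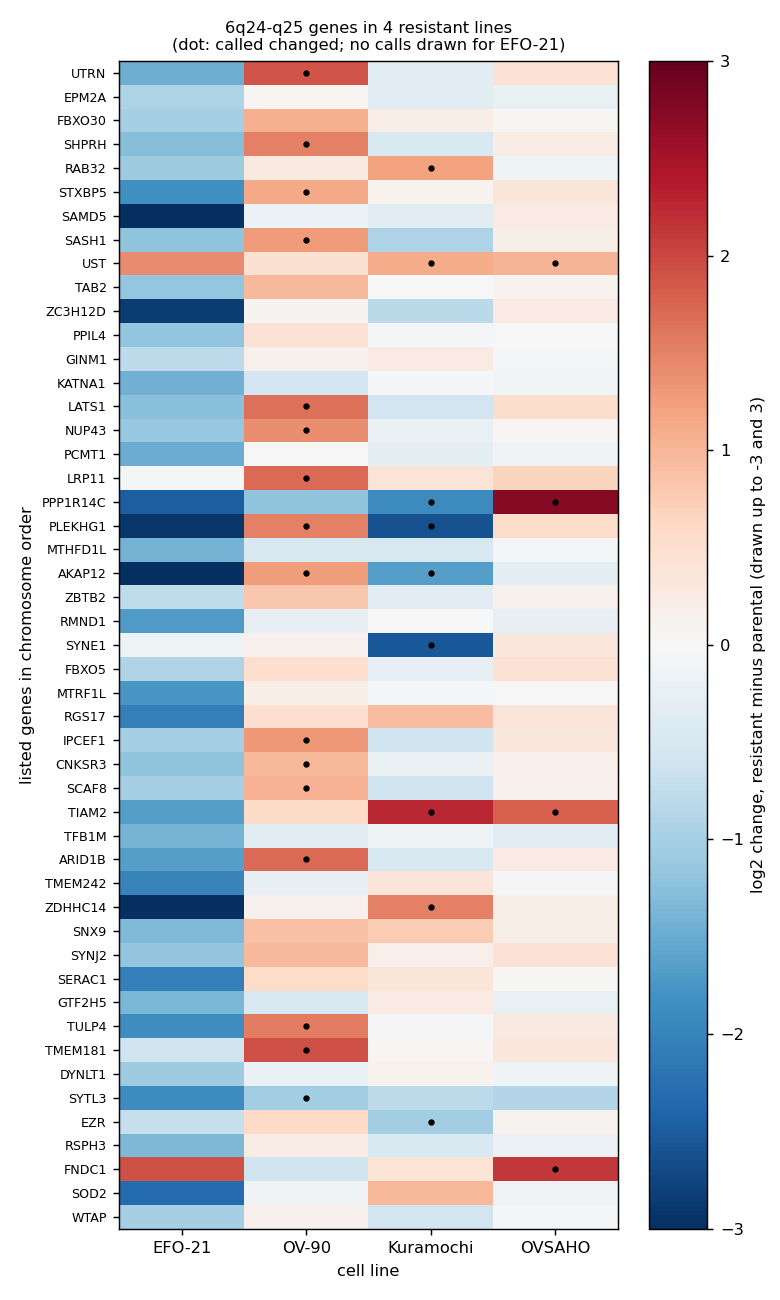
Change of the 49 listed genes (vertical axis, in chromosome order) in each cell line (horizontal axis), coloured by the log2 difference between resistant and parental libraries and drawn up to -3 and 3; a dot marks a called gene, and no calls are drawn for EFO-21, whose values chose the genes. The EFO-21 column is blue for 47 of 49 genes, while 15 genes carry a dot as higher in OV-90.

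Along the chromosome the listed genes had similar medians, which follows in part from their choice on these values. The first 16 listed genes, UTRN to NUP43, had a median change of -1.21, the next 17, PCMT1 to TFB1M, one of -1.42, and the last 16, ARID1B to WTAP, one of -1.35. The 10 unlisted genes of the same stretch with a mean above 5.81 had a median of -0.22. Within the list, the genes furthest above the others had lower neighbours. UST (1.41) lies between SASH1 (-1.22) and TAB2 (-1.15), LRP11 (-0.03) between PCMT1 (-1.50) and PPP1R14C (-2.47), and FNDC1 (1.91) between RSPH3 (-1.34) and SOD2 (-2.32). Unlisted genes are passed over here. RAET1E-AS1, which overlaps LRP11, changed by 0.26. ULBP2 (-0.82), BTF3P10 (-0.21) and ULBP3 (-0.82) lie between LRP11 and PPP1R14C.

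Of the genes for the cytoskeleton, adhesion and signalling scaffolds, all 11 had changes below 0 in EFO-21, with a median of -1.22. So did 47 of the 49 listed genes, which were chosen on this comparison. UTRN encodes utrophin, which links actin filaments to membrane glycoproteins, and its parental values were 8.32, 8.32 and 8.40 against resistant values of 6.97, 6.76 and 6.91. The groups did not overlap, and the change was -1.46 ± 0.07 (SE), or 2.76-fold lower. AKAP12 (chr6:151561102-151679694), an anchor for protein kinase A and C, had parental values of 7.64, 7.44 and 7.82 and resistant values of 3.05, 2.84 and 2.54, a change of -4.83 ± 0.18 (SE). All 3 resistant AKAP12 values were above the bottom of the range but not far from it. The difference corresponds to 28.3-fold, a size that is uncertain because no detection limit is known.

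EZR encodes ezrin, which ties the plasma membrane to cortical actin. Its values were 10.89, 10.83 and 10.86 in parental and 10.18, 10.13 and 10.19 in resistant EFO-21, a change of -0.69 ± 0.03 (SE). The groups stood well apart although the change was under 2-fold. KATNA1, the catalytic subunit of the microtubule-severing katanin, was 7.22, 7.12 and 7.23 in parental and 5.59, 5.88 and 5.80 in resistant cells. PLEKHG1 went from 5.63, 5.58 and 5.69 to 2.57, 3.20 and 2.40, and TIAM2, an exchange factor for Rac, from 4.27, 4.26 and 4.07 to 2.53, 2.28 and 2.86. None of these 3 genes had overlapping groups, and PLEKHG1 was 7.51-fold lower. SYNE1, which encodes a nesprin of the nuclear envelope, was at the bottom of the range in all 6 EFO-21 libraries (1.18 to 1.72), so EFO-21 gives no usable comparison for it. DYNLT1, a dynein light chain, changed by -1.08, the scaffolds SASH1 and CNKSR3 by -1.22 and -1.20, and IPCEF1 by -1.0 with overlapping groups.

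The 13 genes for membrane traffic, membrane proteins and secreted proteins were the most mixed, with changes from -4.00 to 1.91 and a median of -1.19. LRP11, a membrane protein of the LDL receptor-related group (chr6:150139893-150185495), had values of 7.33, 7.43 and 7.30 in parental and 7.48, 7.30 and 7.18 in resistant EFO-21, and the groups overlapped. FNDC1, a secreted protein with fibronectin type III domains, was 4.52, 4.50 and 4.68 in parental and 6.51, 6.54 and 6.35 in resistant cells, 3.75-fold higher. ZDHHC14, a palmitoyltransferase, was 4.11, 4.20 and 4.23 in parental libraries and 0.19, 0.18 and 0.17 in resistant ones. All 3 resistant ZDHHC14 values lie at the bottom of the range, so the difference of -4.00 is not a measured fold change. FNDC1, ZDHHC14, SAMD5, SYTL3 and ZC3H12D were picked for mention once their values were known.

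TMEM181, a transmembrane protein, was 6.76, 6.65 and 6.62 in parental and 6.20, 6.0 and 6.04 in resistant EFO-21, and GINM1, a membrane glycoprotein, was 9.27, 9.19 and 9.15 against 8.30, 8.46 and 8.46. Both had groups that stood apart with changes under 2-fold, -0.60 and -0.79. PPP1R14C, an inhibitor of protein phosphatase 1, went from 6.39, 5.89 and 6.45 to 3.32, 4.0 and 3.99. UST, a sulfotransferase acting on glycosaminoglycans, went the other way, from 2.98, 2.44 and 2.95 to 4.34, 4.42 and 3.85. Among the rest, the small GTPase gene RAB32 changed by -1.07, the SNARE regulator STXBP5 by -1.83, SNX9 and SYNJ2, which act in endocytosis, by -1.32 and -1.20, and RGS17, which shuts off G protein signalling, by -2.06. The RGS17 value rests on 1 exon, and its resistant libraries were 0.74, which lies at the bottom of the range, 3.54 and 2.83. SYTL3, a synaptotagmin-like protein, was at the bottom in the 3 resistant libraries (0.26 to 0.52).

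**Figure D2:**
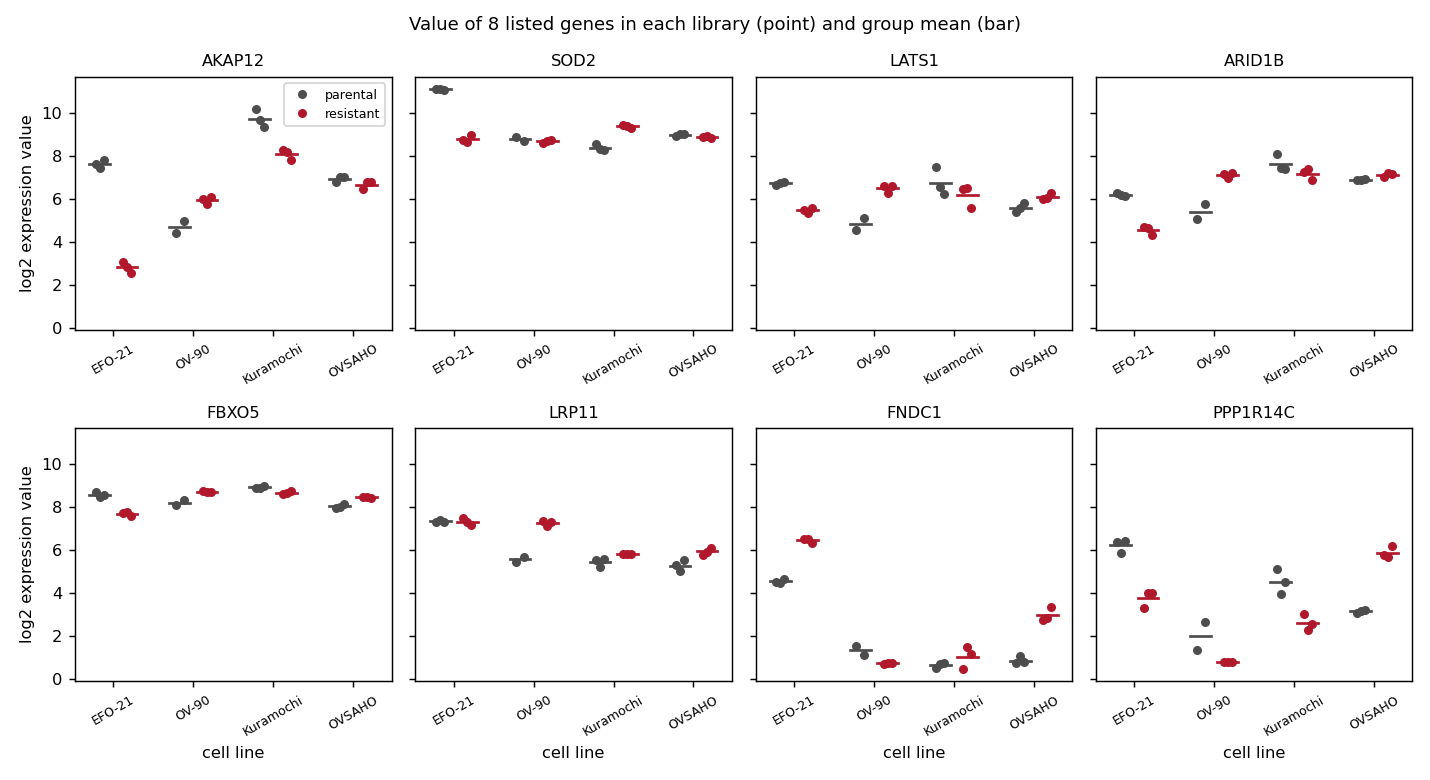
Log2 expression values (vertical axis) of 8 listed genes in each library (points) with group means (bars), by cell line (horizontal axis), parental in grey and resistant in red. In EFO-21 the resistant values of AKAP12, SOD2, LATS1, ARID1B, FBXO5 and PPP1R14C lie below all parental values, those of LRP11 overlap with them and those of FNDC1 lie above.

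Among kinase signalling genes, ubiquitin ligases and related regulators, all 8 were lower in resistant EFO-21, with a median change of -1.20. The same held for 47 of the 49 listed genes, which were chosen on this comparison. LATS1, a core kinase of the Hippo pathway, had values of 6.65, 6.73 and 6.80 in parental and 5.50, 5.36 and 5.58 in resistant cells, 2.37-fold lower with no overlap. FBXO5, also called EMI1, restrains the anaphase-promoting complex before mitosis. It was 8.73, 8.47 and 8.59 in parental and 7.72, 7.76 and 7.62 in resistant cells, a change of -0.89 ± 0.08 (SE). TAB2, an adaptor that brings ubiquitin chains to the kinase TAK1, was 8.23, 8.27 and 8.18 against 7.06, 7.10 and 7.06, and SHPRH, a ubiquitin ligase for the replication clamp PCNA, was 5.45, 5.08 and 5.28 against 4.09, 3.90 and 4.0. Neither gene had overlapping groups. FBXO30 changed by -0.99, TULP4 by -1.86, EPM2A, the glycogen phosphatase laforin, by -0.93, and ZC3H12D, an RNA-binding regulator with 1 exon behind its value, by -2.85. Of the resistant libraries, 2 for TULP4 and 1 for ZC3H12D were at the bottom of the range, so these differences are not measured fold changes.

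The 7 genes for the nucleus and RNA had changes between -1.65 and -0.76. ARID1B, a DNA-binding subunit of SWI/SNF chromatin remodellers, was 6.26, 6.20 and 6.16 in parental and 4.70, 4.66 and 4.31 in resistant EFO-21, 3.13-fold lower. GTF2H5, the smallest subunit of the repair and transcription factor TFIIH, was 8.85, 8.88 and 8.90 against 7.28, 7.67 and 7.58. NUP43, a subunit of the nuclear pore Y complex, was 8.20, 8.0 and 8.12 against 6.94, 7.05 and 6.92. These 3 genes all had groups that stood apart. WTAP, a regulatory subunit of the enzyme that methylates adenosine in mRNA, was 7.56, 7.53 and 7.51 in parental and 6.49, 6.71 and 6.44 in resistant cells, a change of -0.99 ± 0.08 (SE). The transcription factor gene ZBTB2 changed by -0.76, SCAF8, which binds RNA polymerase II, by -0.99, and PPIL4, a nuclear peptidyl-prolyl isomerase, by -1.19.

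All 7 genes with a mitochondrial product were at least 2-fold lower, with a median change of -1.74 and a range of -2.32 to -1.40. So were 35 of the 49 listed genes (71.4%), against 8.09% of all genes. The listed genes were chosen on this comparison and the role groups were formed with results known, so nothing is read from the count. SOD2, the superoxide dismutase of the mitochondrial matrix (chr6:160090101-160183561, minus strand), was 11.14, 11.11 and 11.08 in parental and 8.76, 8.66 and 8.96 in resistant EFO-21, 4.99-fold lower. TMEM242, a protein of the inner mitochondrial membrane, was 8.0, 8.15 and 8.04 against 5.81, 6.04 and 6.31. RMND1, needed for mitochondrial translation, was 6.85, 6.89 and 6.81 against 5.01, 5.18 and 5.26. The values of the groups were separate for all 3. MTHFD1L, an enzyme of mitochondrial folate metabolism, changed by -1.42, TFB1M, which methylates mitochondrial ribosomal RNA, by -1.40, the release factor MTRF1L by -1.74 and SERAC1, which acts in phosphatidylglycerol remodelling, by -2.05. Of the 3 remaining genes, PCMT1, a methyltransferase that repairs damaged aspartyl residues, was 9.45, 9.42 and 9.41 against 7.81, 7.93 and 8.04, the radial spoke gene RSPH3 changed by -1.34, and SAMD5, a SAM domain gene, changed by -3.38.

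Some listed genes overlap on the genome. SOD2 and WTAP, on opposite strands, share 30735 bases in the GENCODE annotation, NUP43 and PCMT1 share 222, SCAF8 and TIAM2 share 1548 on the same strand, and TIAM2 and TFB1M share 1590. The libraries were made with a stranded kit, but whether strand was used in counting is not given in the sources used here, so reads from the shared bases of these pairs may have been given to either gene.

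Genes beside the stretch were compared with those at its borders in EFO-21. The 3 nearest measured genes before UTRN with a mean above 5.81 were LTV1 (8.95 ± 0.09 to 8.44 ± 0.05, SD, n = 3), SF3B5 (13.88 ± 0.02 to 13.23 ± 0.07, SD, n = 3) and the pseudogene TPT1P4 (12.19 ± 0.10 to 11.98 ± 0.09, SD, n = 3), whose changes were -0.51, -0.64 and -0.21. After WTAP they were ACAT2 (8.70 ± 0.09 to 7.78 ± 0.15, SD, n = 3), TCP1 (9.85 ± 0.06 to 9.03 ± 0.08, SD, n = 3) and MRPL18 (10.81, 10.79 and 10.71 to 9.92, 10.06 and 10.02), with changes of -0.92, -0.82 and -0.77. The 3 genes after WTAP were thus close to WTAP itself (-0.99), and the 3 before UTRN were nearer to 0 than UTRN (-1.46). UTRN and WTAP were among the genes chosen on this comparison, so the contrast with their neighbours follows in part from the choice. TPT1P4 is a processed pseudogene with 1 exon behind its value, and its reads may come from its parent gene. Over longer stretches, the median change of genes with a mean above 5.81 was -0.06 on the short arm (312 genes), -0.41 on the long arm before UTRN (161 genes) and -0.78 after WTAP, where 19 of 20 genes had changes below 0. On the long arm before UTRN, 131 of 161 genes had changes below 0.

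In steps of 10 Mb from UTRN, the median change of genes with a mean above 5.81 was 0.08 at 90 to 80 Mb before it (9 genes) and -0.08 at 80 to 70 Mb before it (19 genes). It was -0.55 at 70 to 60 Mb before UTRN, and in the 6 steps from there to UTRN it lay between -0.65 and -0.32. In the first 10 Mb from UTRN onward it was -0.89 (23 genes), in the next 10 Mb -0.96 (18 genes) and in the last stretch -0.74 (14 genes), with the listed genes of that level included.

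**Figure D3:**
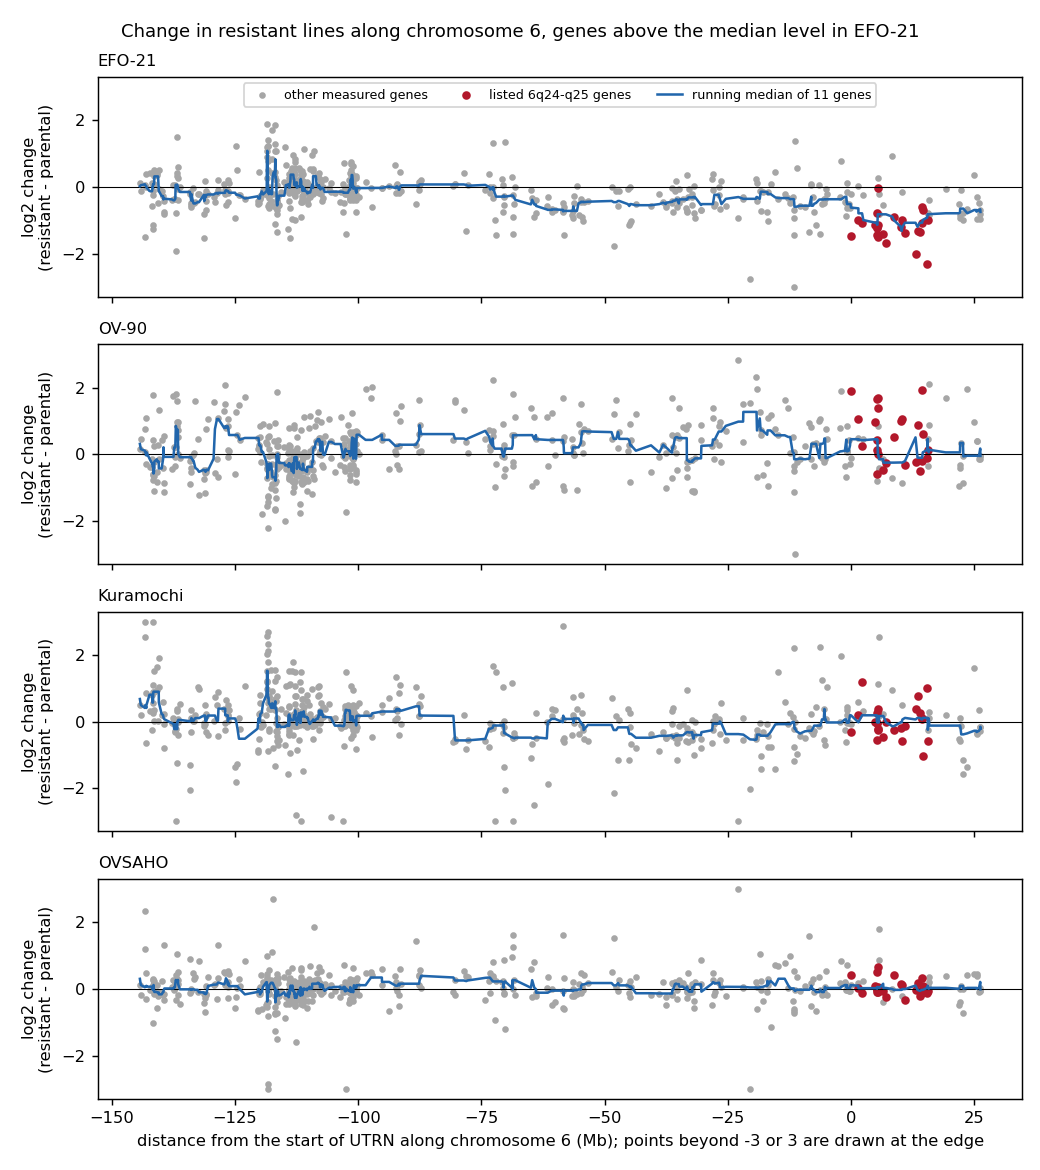
Log2 change between resistant and parental libraries (vertical axes) of genes along chromosome 6 with an EFO-21 mean above 5.81, placed by distance from the start of UTRN in Mb (horizontal axis), for the 4 cell lines. Red points are listed genes, grey points other genes, and the blue line is a running median of 11 genes. In EFO-21 the 25 listed genes drawn, which were chosen on these values, have a median of -1.19, and the 10 unlisted genes between them one of -0.22.

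Genes that lie between UTRN and WTAP but were not listed were measured as well, and whether they were left out for their values is not known. Of all 27, 19 had changes below 0 and 5 were at least 2-fold lower, and their median was -0.54. Of 10 with a mean above 5.81, 7 had changes below 0, and their median was -0.22. ULBP2 and ULBP3, ligands of the natural killer receptor NKG2D, had changes of -0.82 and -0.82, and MYCT1, with a single exon behind its value, one of 0.93. The antisense or divergent transcripts EPM2A-DT and RAET1E-AS1 had changes of 0.04 and 0.26. The other 5, KATNBL1P6, RPS18P9, BTF3P10, PDCL3P5 and RPS4XP8, with changes of -0.24, -0.78, -0.21, -0.54 and -0.16, are processed pseudogenes, whose reads may come from their parent genes on other chromosomes.

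The levels of the listed genes in EFO-21 were then set beside those in the other lines. Parental EFO-21 lay a median of 0.33 above the mean of the other 3 parental lines, with 16 of 49 genes below it, while over all genes this median was -0.04. Resistant EFO-21 lay a median of 1.07 below the same mean (a difference of -1.07), and 43 of 49 genes were below it. Over all genes the median for resistant EFO-21 was -0.03. The resistant EFO-21 mean was the lowest of the 8 groups for 28 of 49 genes (57.1%), compared with 16.3% of all genes, as a description. The genes were chosen for lower values in resistant than in parental EFO-21. These medians and counts therefore follow in part from the choice, and nothing is read from them. Of those 28 genes, SYNE1 was at the bottom of the range in both forms of EFO-21. Those 28 include AKAP12, ARID1B, FBXO5, SHPRH, GTF2H5 and WTAP, whereas SOD2 stayed within the range of the other lines, with a resistant EFO-21 mean of 8.79 and group means of 8.39 to 9.38 in the 3 other lines.

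The other members of the complexes and pathways in which listed genes act were compared in the same EFO-21 libraries. They were 150 genes in 11 lists, none of them on 6q24-q25, and served to show whether lower values extended to the partners. Some lie elsewhere on chromosome 6, and none of those was called. Their changes were -0.96 (PHF10), -0.47 (CCN2), -0.42 (MAP3K7), -0.38 (GTF2H4), -0.21 (EPB41L2), 0.19 (BICRAL) and 0.55 (TEAD3). With limma, at an adjusted p under 0.05 and at least a 2-fold change, 0 were called higher and 5 (3.33%) lower, against 7.11% and 7.15% of all genes. Of the 11380 genes with an EFO-21 mean above 5.81, 3.11% were called higher and 3.78% lower. The share of partners called lower was thus close to that of the better expressed genes, although not every partner lies above that level. With no adjustment and no fold threshold, 42 (28%) were higher and 55 (36.7%) lower at a p under 0.05, where 28.6% and 27% of all genes were, and the median change of the 150 was -0.03. The lists of the Hippo pathway (LATS1), SWI/SNF (ARID1B), ezrin-radixin-moesin linkers (EZR), the nuclear envelope LINC complex (SYNE1), PCNA ubiquitination (SHPRH), TFIIH (GTF2H5) and the nuclear pore Y complex (NUP43) had 0 called members of 21, 25, 8, 9, 11, 9 and 9. Their median changes were 0.08, -0.06, 0.17, 0.15, -0.01, -0.22 and -0.01.

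The 5 called partners came from the other 4 lists. MAD2L1, a spindle checkpoint protein that inhibits the anaphase-promoting complex, fell from 7.94 ± 0.06 to 6.76 ± 0.30 (SD, n = 3), a change of -1.18 with a limma adjusted p of 0.0014, as 1 of 21 in the list of that complex (FBXO5), whose median was -0.18. METTL14, the partner of the catalytic subunit in mRNA adenosine methylation, fell by 1.01 (adjusted p = 0.00045), as 1 of 14 in the WTAP list, whose median was 0.13. NFKB1, a transcription factor downstream of TAK1, fell by 1.28 (adjusted p = 0.00013), as 1 of 10 in the TAB2 list, whose median was 0.07. The extracellular superoxide dismutase gene SOD3 fell by 2.87 (adjusted p = 7.59e-05) and the peroxiredoxin gene PRDX1 by 1.03 (adjusted p = 6.81e-05), as 2 of 13 antioxidant enzymes (SOD2), whose median was -0.21. MAD2L1, METTL14, NFKB1 and SOD3 all lie on chromosome 4, and PRDX1 on chromosome 1.

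In OV-90, a line that did not enter the choice, more of the listed genes rose than fell. By limma, 15 of 49 (30.6%) rose in resistant OV-90, against 9.50% of all genes, and 1 (2.04%) fell, SYTL3, against 6.56%. The median change over the listed genes was 0.50, and over all genes it was -0.06. The genes that rose were UTRN, SHPRH, STXBP5, SASH1, LATS1, NUP43, LRP11, PLEKHG1, AKAP12, IPCEF1, CNKSR3, SCAF8, ARID1B, TULP4 and TMEM181. UTRN was 5.40 and 6.20 in parental and 7.70, 7.57 and 7.80 in resistant OV-90, a change of 1.89 ± 0.26 (SE) with an adjusted p of 0.015. LATS1 went from 4.54 and 5.13 to 6.62, 6.28 and 6.59 (change 1.66, adjusted p = 0.016), and ARID1B from 5.05 and 5.77 to 7.15, 7.0 and 7.19 (change 1.71, adjusted p = 0.016). The groups were separate for these 3 genes, and the SD of the 2 parental values was 0.42 to 0.57. LRP11, at the same level in both forms of EFO-21, rose from 5.48 and 5.67 to 7.36, 7.11 and 7.33, a change of 1.69 ± 0.14 (SE) with an adjusted p of 0.0066. SYTL3, the gene that fell, went from 2.98 and 2.46 to 1.58, 1.52 and 1.93 (change -1.04, adjusted p = 0.038), where 2 resistant values were at the bottom.

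The OV-90 result differed with the number of exons behind a value and with the libraries used. Genes whose value came from a robust model over 40 or more exon and junction entries had a median change of 0.32 over all genes, of which 16.8% were called higher, and 1.13 over the 11 listed genes of that class, of which 7 were called higher. With at most 10 entries, the medians were -0.14 over all genes and 0.06 over 9 listed genes, of which 1 was called higher, against 8.16% of all genes in that class. The same classes in EFO-21 had medians of 0.07 and 0.01 over all genes and -1.32 and -1.07 over the listed genes. In place of 16 called genes in OV-90, 11 (22.4%) were called without parental library 2 and 20 (40.8%) without parental library 3, where 11.1% and 27.6% of all genes were called, and 0, 1 and 0 without resistant libraries 13, 14 and 15, when all genes of the table gave 309, 425 and 356 calls. Without adjustment, 15 listed genes were at least 2-fold changed at a p under 0.05 in each of those 3 fits (30.6%), where 17.4%, 18.5% and 16.3% of all genes were. The changes of 11 of the 16 called genes differed by over 1.5 times between the lowest and the highest of the 5 fits. For TMEM181 the change was 1.19 without parental library 2 and 2.69 without parental library 3, and for STXBP5 it was 0.68 and 1.58. LRP11, with 1.60 and 1.79, moved less and was the gene called without library 14. The part of depth and RNA quality in this was not tested.

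**Figure D4:**
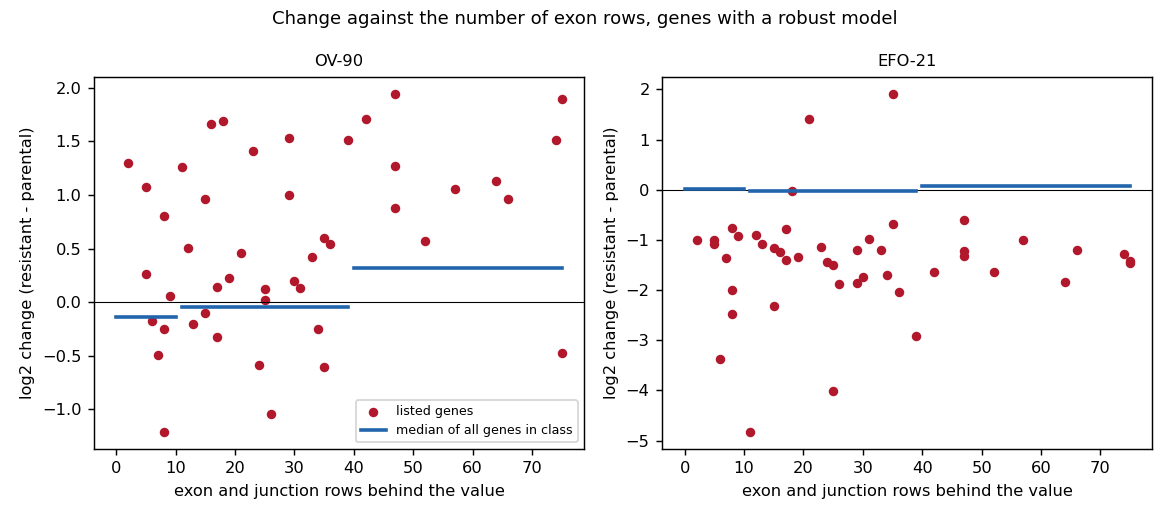
Log2 change between resistant and parental libraries (vertical axes) against the number of exon and junction entries behind each gene's value (horizontal axes), for the 46 listed genes with a robust model, in OV-90 and EFO-21. Blue bars are medians over all genes of the table with at most 10, 11 to 39, and 40 or more entries, 0.32 in OV-90 for the last class, where listed genes had a median of 1.13.

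In Kuramochi the listed genes split. Of 49, 4 (8.16%) rose, against 11.8% of all genes, and 5 (10.2%) fell, against 10.6%, so both shares were near or under those of the whole table, and the median change was -0.14. The genes that rose were TIAM2, from 4.50, 4.23 and 4.39 to 6.71, 6.67 and 6.52 (change 2.26, adjusted p = 6.81e-05), ZDHHC14 (1.51, adjusted p = 0.0029), RAB32 (1.20, adjusted p = 0.00093) and UST, from 5.96, 5.89 and 5.86 to 6.97, 7.01 and 7.04 (1.10, adjusted p = 0.00018). TIAM2, ZDHHC14 and RAB32, all lower in resistant EFO-21, thus had the opposite sign here. PLEKHG1 fell from 7.12, 6.64 and 6.48 to 4.28, 4.42 and 3.72, a change of -2.60 ± 0.26 (SE) with an adjusted p of 0.00043. SYNE1 fell from 4.73, 4.31 and 4.27 to 2.21, 1.86 and 1.63 (change -2.54, adjusted p = 0.0004). The groups did not overlap for either gene, and 1 resistant SYNE1 library was at the bottom.

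The other 3 genes that fell in Kuramochi were PPP1R14C, from 5.11, 3.97 and 4.50 to 3.02, 2.30 and 2.56 (change -1.90, adjusted p = 0.0056), AKAP12, from 10.20, 9.70 and 9.33 to 8.27, 8.18 and 7.82 (-1.66, adjusted p = 0.0019), and EZR, from 11.86, 11.65 and 11.63 to 10.70, 10.73 and 10.58 (-1.04, adjusted p = 0.00018). All 3 had separate groups. The EZR change was under 2-fold without parental library 4 (-0.97) or resistant library 18 (-0.99). SOD2, 4.99-fold lower in resistant EFO-21, was 8.54, 8.33 and 8.30 in parental and 9.45, 9.41 and 9.29 in resistant Kuramochi. This change of 1.0 ± 0.09 (SE; adjusted p = 0.00026) stayed just under the 2-fold threshold, at 1.996-fold.

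In OVSAHO the share of listed genes called in either direction, 8.16%, was near the 7.76% of all genes. By limma, 4 of 49 (8.16%) rose, against 3.93% of all genes, and 0 fell, against 3.83%. At an unadjusted limma p under 0.05 with no fold threshold, 15 genes (30.6%) were higher, against 22.9% of all genes. By the same rule 4 genes (8.16%) were lower, against 21.4% of all genes. The median change was 0.13. PPP1R14C rose from 3.10, 3.17 and 3.21 to 5.79, 5.68 and 6.21, a change of 2.74 ± 0.17 (SE) with an adjusted p of 0.00032. TIAM2 rose from 1.71, 2.25 and 1.79 to 3.53, 3.86 and 3.71 (change 1.78, adjusted p = 0.0021). Its value in parental library 7 was below the bottom of that library (1.81), and the value in library 9 was equal to the bottom (1.79). The TIAM2 change is therefore not a measured fold change. FNDC1 went from 0.76, 1.07 and 0.78, all at the bottom of the range, to 2.77, 2.85 and 3.35 (adjusted p = 0.0013), so its change of 2.12 is not a measured fold change. UST rose from 5.20, 5.24 and 5.07 to 6.10, 6.31 and 6.20 (change 1.03, adjusted p = 0.0011), and its change was 0.98 without parental library 9 or resistant library 20. All 4 genes had separate groups, and UST and FNDC1 are the 2 listed genes whose values were higher in resistant EFO-21.

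The median change of the longer stretches of chromosome 6 in the 3 other lines gives the setting. On the long arm before UTRN it was 0.34 in OV-90, -0.26 in Kuramochi and 0.06 in OVSAHO over the same 161 genes, and after WTAP it was 0.01, -0.20 and 0.03 over 20 genes. For the 25 listed genes with a mean above 5.81 in EFO-21 it was 0.42, -0.03 and 0.01.

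Of the listed genes, 3 were called in opposite directions in a pair of the lines that did not enter the choice. Only for these was the difference itself tested, in a limma fit of all 23 libraries with adjustment over all genes. The calls that picked these genes came from the same libraries, so the p-values do not allow for that choice and the sizes are a description. PLEKHG1 changed by 1.51 in OV-90 and -2.60 in Kuramochi, a difference of 4.12 ± 0.32 (SE, adjusted p = 5.19e-09). AKAP12 changed by 1.26 in OV-90, from 4.43 and 4.97 to 6.0, 5.79 and 6.08, and by -1.66 in Kuramochi, a difference of 2.91 ± 0.30 (SE, adjusted p = 2.23e-07). PPP1R14C changed by -1.90 in Kuramochi and 2.74 in OVSAHO, a difference of -4.64 ± 0.45 (SE, adjusted p = 1.19e-07). In OV-90 PPP1R14C was 1.36 and 2.64 in parental libraries and 0.79, 0.81 and 0.78, at the bottom, in resistant libraries.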

How the data were processed

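RNA from 23 libraries of 4 ovarian cancer cell lines, made with a stranded mRNA kit, was processed by the authors: reads were aligned to GRCh37 (hg19, also named in the submitters' processing notes), exons with few reads were dropped, and each gene was given 1 value by robust regression on its exon and junction reads (16448 genes, 46 of the 49 listed) or, for 5210 genes, a mean of log2 exon values. The deposited values are log2 expression, quantile normalized by the authors, which hides any shift shared by most genes. No annotation release is given in the sources used here.

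Columns were mapped to groups by line and by the ending that marks the resistant form (0 columns of other samples). They carry library numbers but no replicate numbers. Genes were named by NCBI Gene ID through a RefSeq gene table (20745 of 21658, 95.8%), and placed by symbol with GENCODE's annotation for GRCh37. Promoters came from RefSeq, assembly GRCh38.p14, matched by symbol.

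Each line was fitted alone with limma (version 3.58.1, R 4.3.3; lmFit and eBayes with trend) on the deposited values, with no pseudocount and no filter. P-values were two-sided and Benjamini-Hochberg adjusted over all genes; a gene was called at an adjusted p under 0.05 and at least 2-fold. The study's methods state no test for these pairs. With 3 against 3 libraries an exact permutation test cannot reach 0.05, so none was used. The code was tested on simulated data with known changes. The alternatives were 1 fit of all libraries, no trend, a filter at the 25th percentile, recentring, thresholds of 1.5-fold and no fold, and leaving out each library.

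The members, the lists and the groups by role were chosen with earlier results of these data known. Full values are given for the 6 largest and 6 smallest falls among listed genes with an EFO-21 mean above the median of all gene means, the namesakes of the 11 partner lists, genes called in at least 2 of the 3 other lines, and the border genes with 3 neighbours on each side. Partners are named where called, at most 3 per list.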

Additional observations from a re-analysis of the deposited data

Results flagged for a closer look

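The change between resistant and parental cells differed between lines for 3 listed genes, by limma's test of the difference itself (adjusted over all genes). For PLEKHG1 the change in OV-90 exceeded that in Kuramochi by 4.12 on the log2 scale (adjusted p = 5.19e-09), and for AKAP12 by 2.91 (adjusted p = 2.23e-07). For PPP1R14C the change in Kuramochi minus that in OVSAHO was -4.64 (adjusted p = 1.19e-07). These pairs were tested because the genes had been called in opposite directions in the same libraries, so the p-values do not allow for that choice. In the limma fit of OV-90 alone, PLEKHG1 and AKAP12 pass the threshold no more when any 1 of the 3 resistant libraries is left out (adjusted p between 0.068 and 0.0986). Since groups of 4 or more libraries did not occur, no library was tested as an outlier.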

How the results depend on the processing

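No paired analysis was possible because the columns carry no replicate number. No called listed gene changed sign with a library left out; an OV-90 parental library left alone is assumed to vary like the resistant ones. The count of listed genes changed in OV-90 was 16 and ranged from 0 to 20 when a library was left out, while the 6 other settings gave 15 to 24. In Kuramochi it was 9, 9 to 10 with a library left out, 15 at 1.5-fold and 22 with no fold threshold, and its split of 4 higher and 5 lower became 6 and 4 without parental library 4, 5 and 4 without resistant library 18, and 4 and 3 with the 25th percentile filter. In OVSAHO it was 4, 3 to 4 with a library left out, 13 with no fold threshold, and 2 when only genes above the 25th percentile were kept, which leaves 43 listed genes. The partner genes changed in EFO-21 numbered 5, 4 to 6 with a library left out, 13 at 1.5-fold and 81 with no fold threshold. A looser threshold calls more genes by construction; the cause of the other shifts was not tested. A called gene was followed only through the alternatives that kept it in the fit. Under all of these, 0 of 16 calls held in OV-90, 8 of 9 in Kuramochi and 3 of 4 in OVSAHO. The 25th percentile filter removed PPP1R14C and SYNE1, called in Kuramochi, and PPP1R14C and FNDC1, called in OVSAHO, so these calls were not tested under it. The median EFO-21 change of -1.32 lay between -1.35 and -1.29 with a library left out, and the mean in its place was -1.42. Depth is unknown, so no detection limit can be given, and values near the bottom of the range are the least certain.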
